A study of Rattus norvegicus with 18 samples.

Results

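The activin, TGF-beta and Id genes described here were Inhba, Fst, Smad7, Smad3, Tgfb2, Skil, Id1, Id2, Id3 and Id4. They are 10 of the 14218 genes that the platform annotation names alone on a probe set, the set of short oligonucleotides whose combined brightness gives 1 array value. Every probe set with 1 of these symbols was taken. This gave 20 probe sets of the 31099 on the array, 16 of which were bright enough to be tested, among 19567 tested in all. The RNA came from rat hippocampal neurons in dissociated culture, hybridised to 18 Affymetrix arrays in 6 groups of 3 biological replicates. The MEF2 RNAi groups had received lentivirus carrying MEF2-specific shRNAs on day 3 in vitro, and the control groups lentivirus carrying control shRNAs. On day 10 every culture was first given AP5, a blocker of NMDA receptors, and TTX, a blocker of sodium channels, for 1 h. Extracellular KCl at 55 mM, which depolarizes neurons, was then present for 0, 1 or 6 h, so the groups were MEF2 RNAi at 0, 1 and 6 h and control at 0, 1 and 6 h. The labels do not say whether replicates came from separate animals or platings, so p-values measure the spread between these arrays. They also do not give the cell types in the cultures or the promoter that drives the shRNAs.

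Activins, made of inhibin beta chains, and TGF-betas are secreted ligands that bind paired receptor kinases, which phosphorylate Smad2 and Smad3 to act in the nucleus with Smad4. Follistatin, the product of Fst, binds activins outside the cell, Smad7 blocks Smad signalling at the receptor, and SnoN, the product of Skil, represses Smad target genes. Id proteins are helix-loop-helix factors without a DNA-binding region that hold E proteins away from DNA, and Id genes are known targets of the related BMP branch. MEF2 proteins are transcription factors that calcium entry into neurons activates.

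Mef2a was lower in the knockdown arrays. Its brightest probe set (1383093_at) gave 595 to 620, 549 to 593 and 443 to 561 signal units with MEF2 RNAi at 0, 1 and 6 h, against 1739 to 2001, 2051 to 2331 and 1534 to 1928 in control arrays. The level left was 32.8%, 26.5% and 27.6% of control (limma adjusted p = 2.77e-07, 4.28e-08 and 6.67e-08). Of its other probe sets, 1378360_at left 36.0%, 28.6% and 28.8%, 1392472_at left 59.1%, 36.9% and 39.9%, and 1393290_at left 67.8%, 55.1% and 66.2%, all called lower. The brightest Mef2d probe set left 69.5%, 74.7% and 67.5%, and the second one 90.8%, 100.3% and 94.5%, where no difference was called. Log2 signals of arrays within a group correlated at 0.993 to 0.998. Neuron markers were high, with the signals of 14 genes summing to 59337 to 69396 in MEF2 RNAi arrays and 65552 to 72198 in control arrays. Astrocyte markers were also high, with a sum over 9 genes of 51552 to 62194 in MEF2 RNAi arrays and 42762 to 56671 in control arrays. Endothelial and fibroblast markers (10 genes) summed to 2159 to 3374 in MEF2 RNAi arrays and 3461 to 4351 in control arrays. Oligodendrocyte lineage markers (8 genes) summed to 8699 to 15950 with MEF2 RNAi and 8113 to 14449 in control arrays. Microglia and macrophage markers (9 genes) summed to 1582 to 1849 and 1570 to 1872, and proliferating and progenitor markers (7 genes) to 15138 to 21524 and 12803 to 22780. In every array 1 marker of the endothelial list (Pecam1), 1 of the oligodendrocyte list (Mog) and 1 of the microglia list (Ptprc) was at the floor.

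In all that follows a call means an adjusted p under 0.05 from limma, Benjamini-Hochberg adjusted over all tested probe sets. Signals are linear, as deposited, and differences are on the log2 scale after signals under 72.6 were raised to that floor. Calls and shares come from a fit without the replicate number unless stated. Arrays that share a replicate number deviated together, so a second fit with the replicate number as a block is given where it changes a call.

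Inhba encodes the inhibin beta A chain, from which activin A is built. Its responsive probe set (1383486_at) was near the floor until 6 h of KCl. With MEF2 RNAi it read 55.6, 54.8 and 54.3 at 0 h, 58.8, 49.8 and 52.7 at 1 h, and 212, 85.9 and 303 at 6 h. In control arrays it read 135, 80.4 and 80.3 at 0 h, 65.6, 66.6 and 66.1 at 1 h, and 329, 189 and 327 at 6 h. The 6 h arrays lay above the earlier ones in both arms, although replicate 2 of the 6 h MEF2 RNAi arrays was barely above the floor. Relative to 0 h the control signal rose 2.85-fold (log2 1.51, SE 0.335, n = 3 per group; limma adjusted p = 0.00194). The 1 h control arrays were all at the floor, so the 6 h level was at least 3.76-fold higher than theirs (adjusted p = 0.000375). With MEF2 RNAi the 0 h arrays were at the floor as well, and 6 h was at least 2.44-fold higher (adjusted p = 0.00652). The folds depend on the floor. With it set at the 40th percentile of signal both control rises came to 0.77, or 1.71-fold (adjusted p = 0.00581 and 0.00708), and the MEF2 RNAi rise came to 0.45, or 1.36-fold, which was not called (adjusted p = 0.0948). The probe set passed the filter through 5 arrays alone, all at 6 h of KCl, so a rise at 6 h was partly built into its selection.

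At 6 h the MEF2 RNAi arrays overlapped the control arrays on this probe set (-0.63, SE 0.335; adjusted p = 0.254), and without replicate 3 of MEF2 RNAi at 6 h the difference was called (adjusted p = 0.0499). Averaged over the times the difference was -0.34 (adjusted p = 0.2), and it was called without that array (0.0434) and with an offset of 16 in place of the floor (0.0416). The second Inhba probe set (1369012_at) covered a narrow range, 145 to 184 with MEF2 RNAi and 144 to 189 in control arrays over all times. No comparison on it was called over all 18 arrays. Its largest step between KCl times in control arrays, 0.20 between 1 h and 6 h, had an adjusted p of 0.0799, and 0.0351 with the replicate block. Without control replicate 3 at 0 h its control change of 0.17 at 6 h was called (adjusted p = 0.0234). The Inhba probe sets correlated at 0.70 over the 18 arrays, which share the 6 groups and the replicate numbers.

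**Figure D1:**
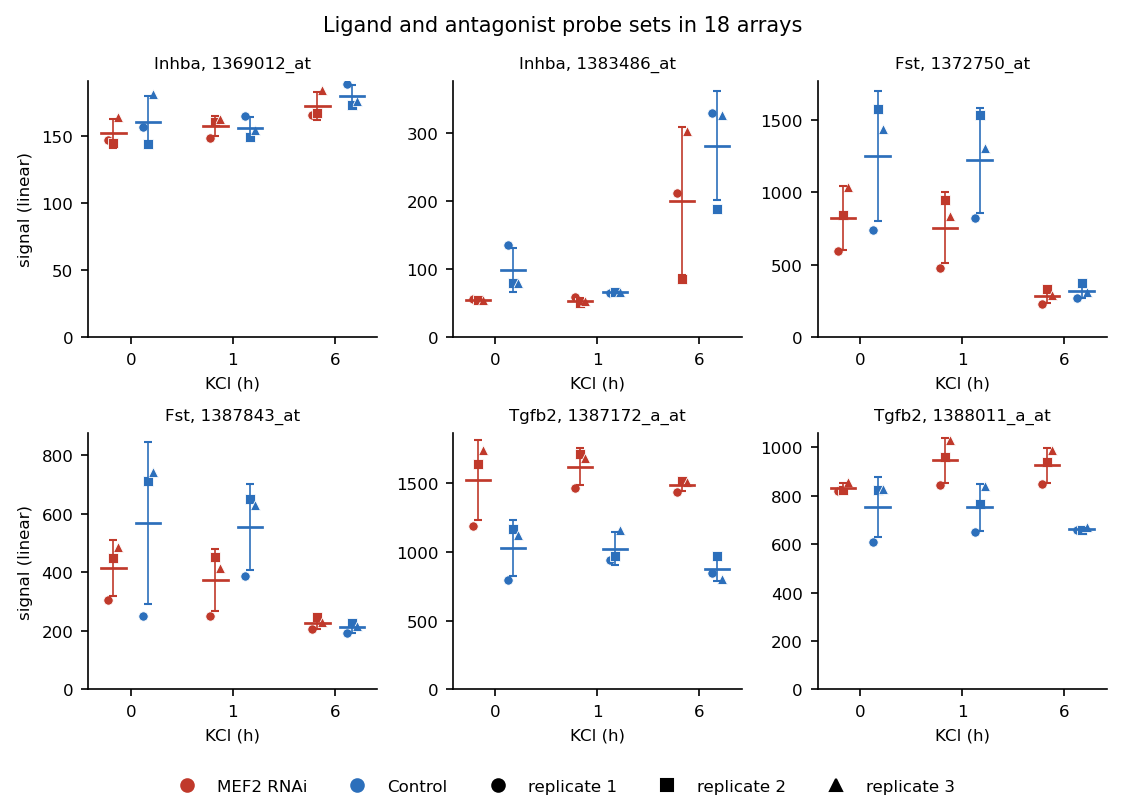
Linear signal of each array for the Inhba, Fst and Tgfb2 probe sets, by hours of KCl; MEF2 RNAi is drawn left of control, symbols mark the replicate number, and bars show the mean and SD of 3 arrays. Fst at 1372750_at lies between 232 and 373 in all 6 h arrays, below every 0 h and 1 h array, and Tgfb2 at 1387172_a_at is higher with MEF2 RNAi than in control at each time.

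Fst moved the opposite way to the responsive Inhba probe set, whose rise at 6 h was partly built into its selection. On the other Inhba probe set no comparison was called over all 18 arrays. Follistatin is the activin-binding antagonist, and its brighter probe set (1372750_at) was the member with the largest fall after 6 h of KCl. It read 597, 844 and 1038 with MEF2 RNAi at 0 h, 481, 949 and 838 at 1 h, and 232, 336 and 294 at 6 h. Control arrays read 742, 1577 and 1438 at 0 h, 826, 1533 and 1305 at 1 h, and 272, 373 and 311 at 6 h. The 6 h arrays did not overlap the earlier ones in either arm, and replicate 1 was the lowest array of every group. Control arrays fell by 1.91 on the log2 scale between 0 and 6 h (SE 0.314; adjusted p = 0.000162), a 3.76-fold decrease, and the change at 1 h was -0.01. MEF2 RNAi arrays fell 2.83-fold (adjusted p = 0.00132), and the difference between the arms in that response, 0.41, was not called (adjusted p = 0.898). The other probe set (1387843_at) followed it with a correlation of 0.953 over the 18 arrays. It fell by 1.27 in control arrays at 6 h (adjusted p = 0.00766). In MEF2 RNAi arrays its change was -0.84, with an adjusted p of 0.0665, which the replicate block brought to 0.00268 and leaving out replicate 1 at 0 h to 0.0426. That probe set read 205 to 249 with MEF2 RNAi at 6 h and 192 to 227 in control arrays at 6 h.

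Before and early in the KCl treatment, Fst was nominally lower with MEF2 RNAi. At 1372750_at the difference was -0.56 at 0 h, -0.70 at 1 h and -0.15 at 6 h, and none was called (adjusted p = 0.282, 0.161 and 0.831). The replicate block called the first 2 (adjusted p = 0.00646 and 0.00128). It also called the average over the 3 times, -0.47, which had an adjusted p of 0.056 without it and 0.000138 with it. The average was also called without replicate 1 of control at 0 h (adjusted p = 0.0111) or at 1 h (0.0243), without replicate 2 of MEF2 RNAi at 1 h (0.0383), and without replicate 3 of MEF2 RNAi at 0 h (0.0403). At 1387843_at the 1 h difference of -0.58 was called with the replicate block alone (adjusted p = 0.309 without it and 0.0453 with it). Its 0 h difference and its average were called without replicate 1 of control at 0 h (adjusted p = 0.0443 and 0.0213).

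Tgfb2, which encodes the ligand TGF-beta 2, differed between the arms and showed no called response to KCl on either probe set. The brighter one (1387172_a_at) read 1190, 1641 and 1739 with MEF2 RNAi at 0 h, 1466, 1715 and 1684 at 1 h, and 1438, 1515 and 1511 at 6 h. Control arrays read 797, 1170 and 1123 at 0 h, 939, 968 and 1160 at 1 h, and 846, 968 and 806 at 6 h. At each time the lowest MEF2 RNAi array lay above the highest control array. The difference was 0.57 at 0 h, 0.67 at 1 h and 0.77 at 6 h (SE 0.15 each), or 1.48-fold, 1.59-fold and 1.71-fold (adjusted p = 0.0198, 0.00654 and 0.00256). Averaged over the times it was 0.67 (SE 0.0869; adjusted p = 2.13e-05). The 0 h call was lost with no filter on dim probe sets (adjusted p = 0.0531), without replicate 1 of control (0.0851), and without replicate 2 (0.0795) or 3 (0.0922) of MEF2 RNAi at 0 h. In a bulk culture, more cells of a type and more RNA per cell cannot be told apart.

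The dimmer Tgfb2 probe set (1388011_a_at) tracked the first with a correlation of 0.887 over the 18 arrays. It read 821 to 857 with MEF2 RNAi at 0 h, 847 to 1031 at 1 h and 849 to 989 at 6 h, against 610 to 829, 649 to 842 and 658 to 670 in control arrays. It was called higher with MEF2 RNAi at 6 h (0.48, 1.4-fold; adjusted p = 0.0103) and on average (0.32; adjusted p = 0.00127). The differences at 0 h (0.16; adjusted p = 0.426) and 1 h (0.34; adjusted p = 0.0638) were not called, the one at 1 h being called with the replicate block (adjusted p = 0.0056) and without replicate 1 of MEF2 RNAi (0.0495) or replicate 3 of control (0.0361) at 1 h. Without replicate 1 of control at 0 h, the Tgfb2 probe sets were called lower in control arrays at 6 h than at 0 h (adjusted p = 0.0379 and 0.0238).

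Some cell type markers also differed between the arms. Of the 9 astrocyte genes tested, limma called 0 at 0 and 1 h (3 and 5 had an unadjusted p under 0.05) and 1 higher with MEF2 RNAi at 6 h. These were 0%, 0% and 11.1%, against 13.3%, 15.1% and 15% of all tested probe sets. On average over the times 5 were called higher, 55.6% against 33.8%. The 5 were S100b at 0.43, Gja1 at 0.34, Aldoc at 0.30, Gfap at 0.19 and Slc1a2 at 0.13. With the replicate block 4, 5 and 4 were higher at 0, 1 and 6 h and 7 on average, and Aldh1l1 was lower at 6 h (-0.29) and on average (-0.22). That fit called 4430, 4662, 4685 and 8282 of all 19567 tested probe sets in these comparisons. The summed astrocyte signal averaged 58664, 56820 and 56735 with MEF2 RNAi at 0, 1 and 6 h and 50442, 49539 and 49884 in control arrays, with overlapping ranges at each time. Of 13 neuron markers, 1 was called higher and 5 lower on average (46.2%), and of 7 endothelial and fibroblast markers, 3 were called lower (42.9%). Of 7 proliferating and progenitor markers 1 was called higher on average (14.3%). Of 5 oligodendrocyte lineage and 6 microglia and macrophage markers 0 were called on average (0%). The share of all tested probe sets on average was 33.8%. At 0, 1 and 6 h, 2, 2 and 3 neuron markers were called lower (15.4%, 15.4% and 23.1%). Of the endothelial and fibroblast markers 2 were called lower at each time (28.6%). The oligodendrocyte, microglia and progenitor lists had 0 calls (0%) at these times. The shares of all tested probe sets were 13.3%, 15.1% and 15%. The part of these cells in the differences between the arms in Smad7, Tgfb2, Skil, Id2, Id3 and Id4 was not tested.

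Smad7, the inhibitory Smad, was the 1 member with a called difference between the arms in its KCl response. On its 1 measurable probe set (1368896_at) MEF2 RNAi arrays read 143, 179 and 156 at 0 h, 118, 124 and 128 at 1 h, and 122, 139 and 136 at 6 h. Control arrays read 151, 177 and 144 at 0 h, 147, 139 and 141 at 1 h, and 213, 212 and 232 at 6 h. The 3 control arrays at 6 h stood above the other 15 arrays. Control arrays rose by 0.48 between 0 and 6 h (SE 0.0892, 1.39-fold; adjusted p = 0.000481) and by 0.62 between 1 and 6 h (adjusted p = 6.95e-05). MEF2 RNAi arrays fell by 0.36 at 1 h (adjusted p = 0.0371) and by 0.26 at 6 h (adjusted p = 0.031).

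At 6 h Smad7 was 1.65-fold lower with MEF2 RNAi than in control (-0.72, SE 0.0892; adjusted p = 7.18e-05). At 0 h the difference was 0.02, and at 1 h the difference of -0.21 was not called (adjusted p = 0.146). Averaged over the times the difference was -0.31 (adjusted p = 0.000248). The interaction, which is the KCl change with MEF2 RNAi minus that in control, was -0.74 at 6 h (SE 0.126, 95% interval -1.01 to -0.471; adjusted p = 0.0299). Of all probe sets tested, 28, or 0.143%, had a called interaction at 6 h, and this was the 1 such among the 16 of the 10 genes. Over the alternatives tried its adjusted p ran between 0.00903, with the replicate block, and 0.0885. It was lost with no filter on dim probe sets (adjusted p = 0.0617). It was also lost when single 6 h arrays were left out, namely control replicate 1 (0.0539), 2 (0.0614) or 3 (0.0882) or MEF2 RNAi replicate 1 (0.0845) or 3 (0.0677), and for the 0 h arrays without control replicate 3 (0.0885) or MEF2 RNAi replicate 2 (0.0702) or 3 (0.0644).

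The Smad7 falls with MEF2 RNAi were less stable. At 1 h the call was lost with the floor at the 40th percentile (adjusted p = 0.726), with no filter (0.063), with quantile normalization (0.0505) and without 5 of the 6 arrays taken singly (0.085 to 0.175), replicate 1 at 0 h being the exception. At 6 h it was lost with the higher floor (0.496), without MEF2 RNAi replicate 1 at 6 h (0.131), and without replicate 2 (0.167) or 3 (0.0553) at 0 h. The signal is low, and 6 of the 18 arrays lay above their own 40th percentile of 154 to 164. The other Smad7 probe sets gave no reading to set beside it. 1368897_at was at the floor in all 18 arrays, at 45.6 to 57.6, and 1368898_at read 64.5 to 85.0, so neither was tested.

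**Figure D2:**
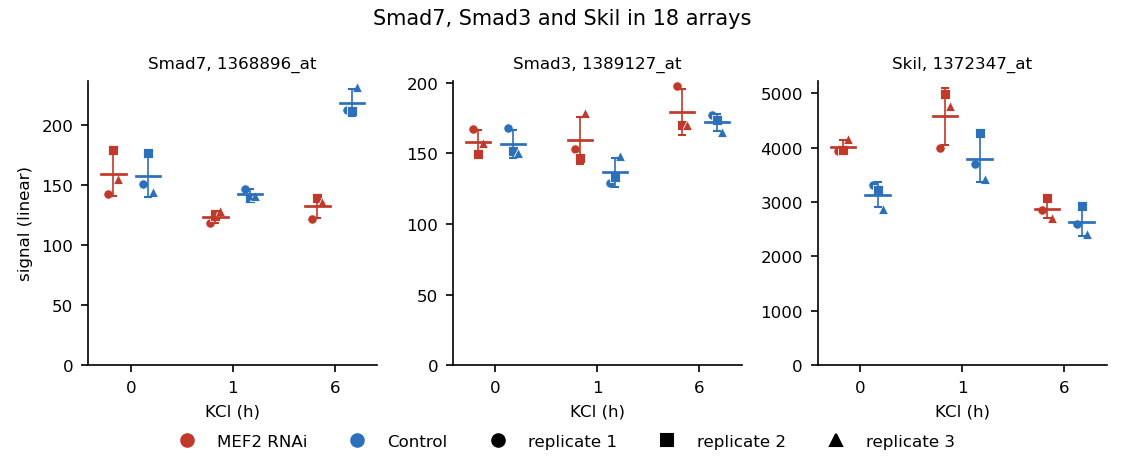
Linear signal of each array for Smad7, Smad3 and Skil, by hours of KCl, with MEF2 RNAi left of control and bars for the mean and SD of 3 arrays. The 3 control arrays for Smad7 at 6 h (212 to 232) are above all others, and Skil is lowest at 6 h in both arms.

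Smad3, the receptor-activated Smad of the activin and TGF-beta branch, changed little. Its tested probe set (1389127_at) read 167, 150 and 158 with MEF2 RNAi at 0 h, 153, 147 and 178 at 1 h, and 198, 170 and 170 at 6 h. Control arrays read 168, 152 and 150, then 129, 133 and 148, then 177, 174 and 165. The 1 call was between 1 and 6 h in control arrays (0.34, 1.26-fold; adjusted p = 0.00689), and it was lost with the floor at the 40th percentile (adjusted p = 0.24). The other Smad3 probe set (1369528_at) read 70.7 to 85.8 and was not tested.

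Skil, which encodes the Smad corepressor SnoN, has 1 probe set (1372347_at). It read 3933, 3953 and 4165 with MEF2 RNAi at 0 h, 3987, 4985 and 4761 at 1 h, and 2858, 3066 and 2713 at 6 h. Control arrays read 3322, 3221 and 2873 at 0 h, 3700, 4267 and 3434 at 1 h, and 2596, 2926 and 2408 at 6 h. In both arms the 6 h arrays were lower than the 1 h arrays without overlap. The fall between 1 and 6 h in control arrays was 0.52 (1.44-fold; adjusted p = 0.000818). Relative to 0 h the MEF2 RNAi arrays fell by 0.48 at 6 h (adjusted p = 0.00127). The control change of -0.25 was not called (adjusted p = 0.0622), except with the replicate block (0.0225), with quantile normalization (0.049), and without control replicate 2 at 6 h (0.0301) or replicate 3 at 0 h (0.0408). The 1 h change in control arrays was 0.27 (adjusted p = 0.262).

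Skil was 1.28-fold higher with MEF2 RNAi at 0 h (0.36, SE 0.1; adjusted p = 0.0261), where the arrays of the arms did not overlap, and 0.25 higher on average (adjusted p = 0.00305). The 0 h call was lost with no filter (adjusted p = 0.0522), without control replicate 2 (0.0552) or 3 (0.112), and without MEF2 RNAi replicate 2 (0.0583) or 3 (0.0855) at 0 h. At 1 h the difference of 0.27 was called with the replicate block (adjusted p = 0.0893 without it and 0.0288 with it), and without MEF2 RNAi replicate 1 (0.0332) or control replicate 2 (0.0389) at 1 h. At 6 h it was 0.13. The Skil promoter window, bases 250 to 1 before the start in RefSeq's GRCr8 table, holds the cAMP response element TGACGTCA at base 53, a match in 1.59% of 33469 such windows. It also holds the Smad box CAGAC, which 42.9% of windows hold, and GGCGCC, a BMP-responsive Smad site found in 8.69% of windows and also in Smad7. The shorter TGACG, part of TGACGTCA, was found in Skil and Smad3 and in 18.2% of windows. Both strands were searched, and the matches describe letters, not binding.

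Id1 and Id3 shared a time course. Both are known BMP target genes, and both had their lowest signals at 1 h of KCl in either arm. Their 250 bases before the annotated start are printed because the genes share this time course and because both windows hold the TATA-box letters TATAA, shown in capitals. In the Id1 window the letters occur on both strands and overlap, at bases 60 and 59 before the start, and in Id3 they start at base 51. The windows are at chr3:161671314-161671563 for Id1 and chr5:153656041-153656290 for Id3, plus strand, assembly GRCr8, from RefSeq. TATAA on either strand was found in 24% of all windows and, among the 9 of the 10 genes with a window, also in Inhba at base 40. The CCAAT box, found in 34% of windows, was present in Id1, Id2 and Inhba, and the E-box CANNTG, found in 65.5%, in Id1, Id2, Tgfb2 and Inhba. Neither the Smad palindrome GTCTAGAC (0.173% of windows) nor the MEF2 consensus (2.96%) was found in the windows of these 9 genes.
Id1: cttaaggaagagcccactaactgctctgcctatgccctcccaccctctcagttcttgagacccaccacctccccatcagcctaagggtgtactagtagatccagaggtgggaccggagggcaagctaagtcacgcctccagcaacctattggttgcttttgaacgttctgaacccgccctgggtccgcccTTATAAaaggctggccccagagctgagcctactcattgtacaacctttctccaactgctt
Id3: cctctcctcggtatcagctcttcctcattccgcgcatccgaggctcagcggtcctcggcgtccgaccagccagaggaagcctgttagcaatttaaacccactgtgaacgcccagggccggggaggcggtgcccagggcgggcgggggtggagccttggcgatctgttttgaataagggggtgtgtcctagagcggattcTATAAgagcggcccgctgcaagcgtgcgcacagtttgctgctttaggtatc

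Id1 (1387028_a_at) read 902, 863 and 719 with MEF2 RNAi at 0 h, 491, 363 and 302 at 1 h, and 1438, 930 and 1045 at 6 h. Control arrays read 951, 652 and 624 at 0 h, 429, 332 and 326 at 1 h, and 1241, 924 and 839 at 6 h. Every 1 h array lay below every array of the other times. At 1 h Id1 had fallen by 1.13 with MEF2 RNAi (SE 0.214, 2.18-fold; adjusted p = 0.00687) and by 1.02 in control (2.03-fold; adjusted p = 0.0167). Id1 was the 1 member called in control at 1 h, where 2.23% of all tested probe sets were called; with the replicate block 3 members were called, against 4.08%. The control call was lost with no filter (adjusted p = 0.0628), without control replicate 1 at 0 h (0.0804), and without control replicate 2 (0.0686) or 3 (0.0839) at 1 h. The MEF2 RNAi call was lost without replicate 3 at 1 h (0.0513).

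Between 1 and 6 h Id1 rose 2.75-fold in control arrays (1.46; adjusted p = 7.8e-05). At 6 h it stood 0.44 above 0 h in both arms, which was not called (adjusted p = 0.123 with MEF2 RNAi and 0.126 in control) and was called with the replicate block (adjusted p = 0.000993 in each). The control difference was also called without control replicate 1 at 0 h (adjusted p = 0.0352). Id1 differed little between the arms, with an average of 0.14 (adjusted p = 0.421, and 0.0391 with the replicate block).

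Id3 (1387769_a_at) had a like time course at a level that differed between the arms. It read 795, 746 and 523 with MEF2 RNAi at 0 h, 454, 289 and 222 at 1 h, and 1387, 754 and 570 at 6 h. Control arrays read 404, 411 and 351 at 0 h, 243, 184 and 151 at 1 h, and 521, 448 and 346 at 6 h. The MEF2 RNAi arrays lay above the control arrays at 0 and 6 h without overlap, while at 1 h replicate 3 with MEF2 RNAi was below the highest control array. Replicate 1 was the highest array in 5 of the 6 groups. The 1 h changes, -1.14 with MEF2 RNAi and -1.04 in control, were not called (adjusted p = 0.0514 and 0.103), and the replicate block called both (adjusted p = 0.000249 and 0.000683). The first was also called with one probe set per gene (0.0462) and without MEF2 RNAi replicate 1 at 1 h (0.0194). The rise between 1 and 6 h in control arrays was 1.19 (2.29-fold; adjusted p = 0.00612).

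Averaged over the times Id3 was 1.77-fold higher with MEF2 RNAi (0.82, SE 0.174; adjusted p = 0.00158). At 6 h it was 0.96 higher (1.95-fold; adjusted p = 0.0421). That call was lost with no filter (0.109), without MEF2 RNAi replicate 1 (0.216) or 2 (0.0618), and without control replicate 2 (0.0911) or 3 (0.159) at 6 h. The differences of 0.80 at 0 h and 0.70 at 1 h were not called (adjusted p = 0.0944 and 0.143), and the replicate block called both (adjusted p = 0.00127 and 0.00312). The correlation between Id1 and Id3 was 0.857 over the 18 arrays.

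**Figure D3:**
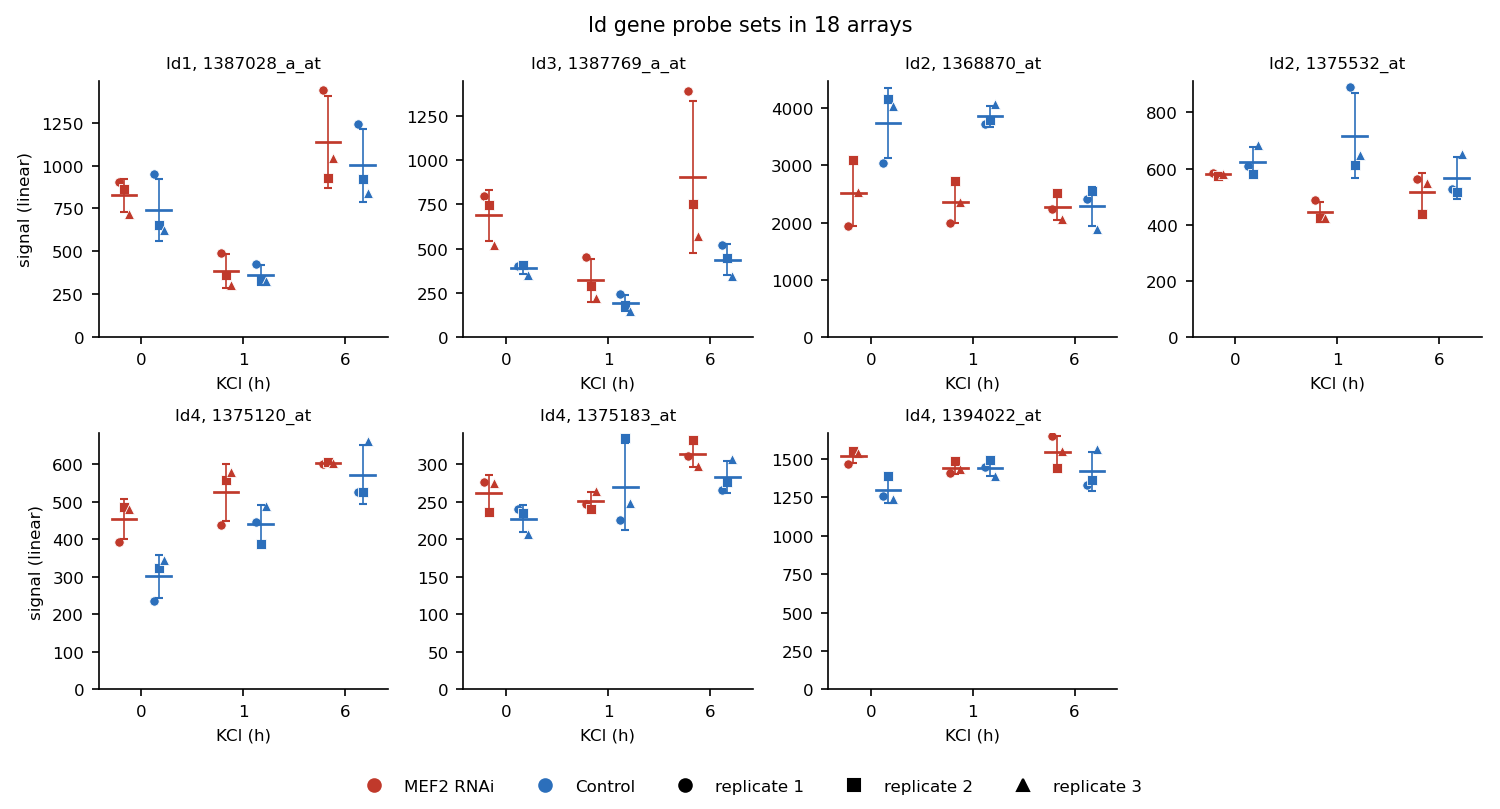
Linear signal of each array for the Id probe sets, by hours of KCl, with MEF2 RNAi left of control and bars for the mean and SD of 3 arrays. Id1 and Id3 are lowest at 1 h in both arms, Id3 is higher with MEF2 RNAi, and Id2 (1368870_at) overlaps between the arms at 6 h.

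Id2, which like the other Id proteins sequesters E proteins, had another pattern. Its brighter probe set (1368870_at) read 1943, 3097 and 2528 with MEF2 RNAi at 0 h, 1997, 2732 and 2360 at 1 h, and 2234, 2515 and 2064 at 6 h. Control arrays read 3041, 4160 and 4029 at 0 h, 3718, 3786 and 4061 at 1 h, and 2406, 2546 and 1891 at 6 h. The 6 h control arrays, at 1891 to 2546, lay below the other control arrays and overlapped the MEF2 RNAi arrays of all 3 times, at 1943 to 3097. The fall in control was 0.71 relative to 0 h (1.64-fold; adjusted p = 0.00297), while the MEF2 RNAi change was -0.13 (adjusted p = 0.58). The difference between these responses, 0.58, was not called (adjusted p = 0.516). With MEF2 RNAi Id2 was 1.64-fold lower at 1 h (-0.72; adjusted p = 0.0081), and at 6 h the difference was 0.00.

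At 0 h Id2 was 0.58 lower with MEF2 RNAi (adjusted p = 0.0299), although the highest MEF2 RNAi array passed the lowest control array. That call was lost with no filter (adjusted p = 0.0768), without MEF2 RNAi replicate 1 (0.123) or 3 (0.0667), and without control replicate 2 (0.121) or 3 (0.104) at 0 h. The second Id2 probe set (1375532_at) correlated with the first at 0.463 over the 18 arrays. It was lower with MEF2 RNAi at 1 h, with 487, 425 and 425 against 889, 612 and 649 in control arrays (-0.67, 1.59-fold; adjusted p = 0.0028). At 0 h and 6 h it spanned 575 to 584 and 438 to 562 with MEF2 RNAi and 581 to 683 and 517 to 652 in control arrays, with no call. Its step of -0.33 between 1 and 6 h in control arrays was called with the replicate block (adjusted p = 0.0718 without it and 0.0272 with it) and without control replicate 2 at 1 h or replicate 3 at 6 h (0.0316 each). On average both probe sets were lower with MEF2 RNAi, by -0.43 (adjusted p = 0.00237) and -0.30 (adjusted p = 0.00584).

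Id4, the fourth gene of the family, was called higher after 6 h of KCl on 1375120_at, though not on its brightest probe set. Probe set 1375120_at read 391, 486 and 479 with MEF2 RNAi at 0 h, 438, 557 and 580 at 1 h, and 600, 606 and 603 at 6 h. Control arrays read 235, 324 and 343 at 0 h, 445, 386 and 489 at 1 h, and 524, 527 and 662 at 6 h. The control arrays of the 3 times did not overlap. The control rise at 6 h was 1.91-fold (0.94, SE 0.148; adjusted p = 0.000111). The 1 h step of 0.56 (adjusted p = 0.0637) and the step of 0.37 between 1 and 6 h (adjusted p = 0.067) were called with the replicate block (adjusted p = 0.00689 and 0.0122). The first was also called without control replicate 3 at 0 h (0.0491), and the second with quantile normalization (0.0357). The MEF2 RNAi rise at 6 h was 0.42 (adjusted p = 0.035), and it was lost with no filter (0.0764), without replicate 1 at 0 h (0.132), and without replicate 1 (0.0706), 2 (0.0776) or 3 (0.0765) at 6 h.

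At 0 h this Id4 probe set was 1.52-fold higher with MEF2 RNAi (0.60; adjusted p = 0.0126), a call that was lost without control replicate 1 (0.056) or MEF2 RNAi replicate 2 (0.0532) or 3 (0.0503) at 0 h. On average it was 0.31 higher (adjusted p = 0.00934). The brightest Id4 probe set (1394022_at) spanned 1410 to 1646 with MEF2 RNAi and 1235 to 1565 in control arrays. No KCl change on it was called in either arm. Its mean signal was 1517 at 0 h and 1545 at 6 h with MEF2 RNAi, and 1294 and 1419 in control. At 0 h it was 0.23 higher with MEF2 RNAi (1.17-fold; adjusted p = 0.0428). That call was lost without any of 5 of the 6 arrays at 0 h (adjusted p = 0.0528 to 0.146), control replicate 2 being the exception. Its average of 0.12 (adjusted p = 0.0356) was lost without any of 11 of the 18 arrays (0.0531 to 0.0759). The third tested probe set (1375183_at) read 236 to 332 with MEF2 RNAi and 208 to 336 in control arrays. Its average of 0.09 between the arms was called without control replicate 2 at 1 h (adjusted p = 0.353 with all arrays and 0.0395 without it). Its control rise of 0.31 at 6 h (adjusted p = 0.0469) was lost with no filter (0.0915) and without any of 5 of the 6 arrays (0.053 to 0.172), the exception being replicate 1 at 0 h. These 3 probe sets correlated at 0.499 to 0.635 over the 18 arrays. The remaining one (1385923_at) was at the floor in all arrays, at 34.8 to 52.6.

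Counted over the 16 tested probe sets, more were called at 6 h of KCl than at 1 h, as was so of all probe sets. At 6 h of KCl 4 were called higher and 3 lower in control arrays, 43.8% of them, where 37.6% of all tested probe sets were called. Between 1 and 6 h in control arrays 5 were higher and 4 lower, 56.2% against 31.8%. With MEF2 RNAi 2 were lower at 1 h and no other was called, 12.5% against 3.19%, and 2 were higher and 3 lower at 6 h, 31.2% against 36.4%. The median change at 6 h was 0.09 with MEF2 RNAi and 0.13 in control, and the median over all probe sets was 0.00 in both. Both control comparisons use the same 6 h arrays. The genes were chosen with earlier results of these data known, and 1 probe set passed the filter through 6 h arrays alone. These shares therefore describe the measured probe sets and support nothing further.

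**Figure D4:**
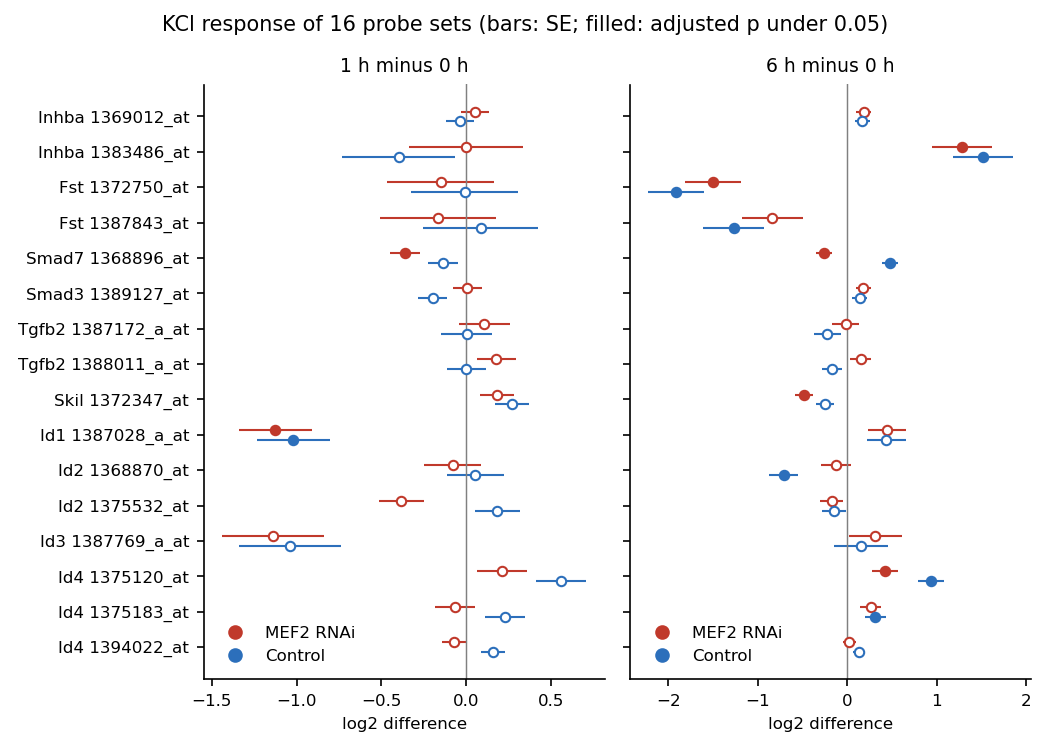
Log2 change of the 16 tested probe sets at 1 h and 6 h of KCl relative to 0 h, with MEF2 RNAi above control for each; bars are the SE and filled points have an adjusted p under 0.05. Id1 and Id3 are near -1 at 1 h, Fst is lowest at 6 h, and the Smad7 points lie on opposite sides of 0 at 6 h.

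Between the arms, 4 probe sets were called higher and 1 lower with MEF2 RNAi at 0 h, 31.2% of the 16, where 13.3% of all tested probe sets were called. At 1 h 1 was higher and 2 lower, 18.8% against 15.1%, and the replicate block called 8, against 23.8% of all probe sets. At 6 h 3 were higher and 1 lower, 25% against 15%. Averaged over the times 6 were higher and 3 lower, 56.2% against 33.8%. limma called no interaction at 1 h among the 16 or among all probe sets (0%), where 2 of the 16 and 691 of all had an unadjusted p under 0.05. The 3 times share no array, and the average is built from them. The calls between the arms fell on 4, 2 and 3 genes at 0, 1 and 6 h and on 6 on average. The genes were chosen with earlier results of these data known, so these shares describe the measured probe sets and support nothing further.

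**Figure D5:**
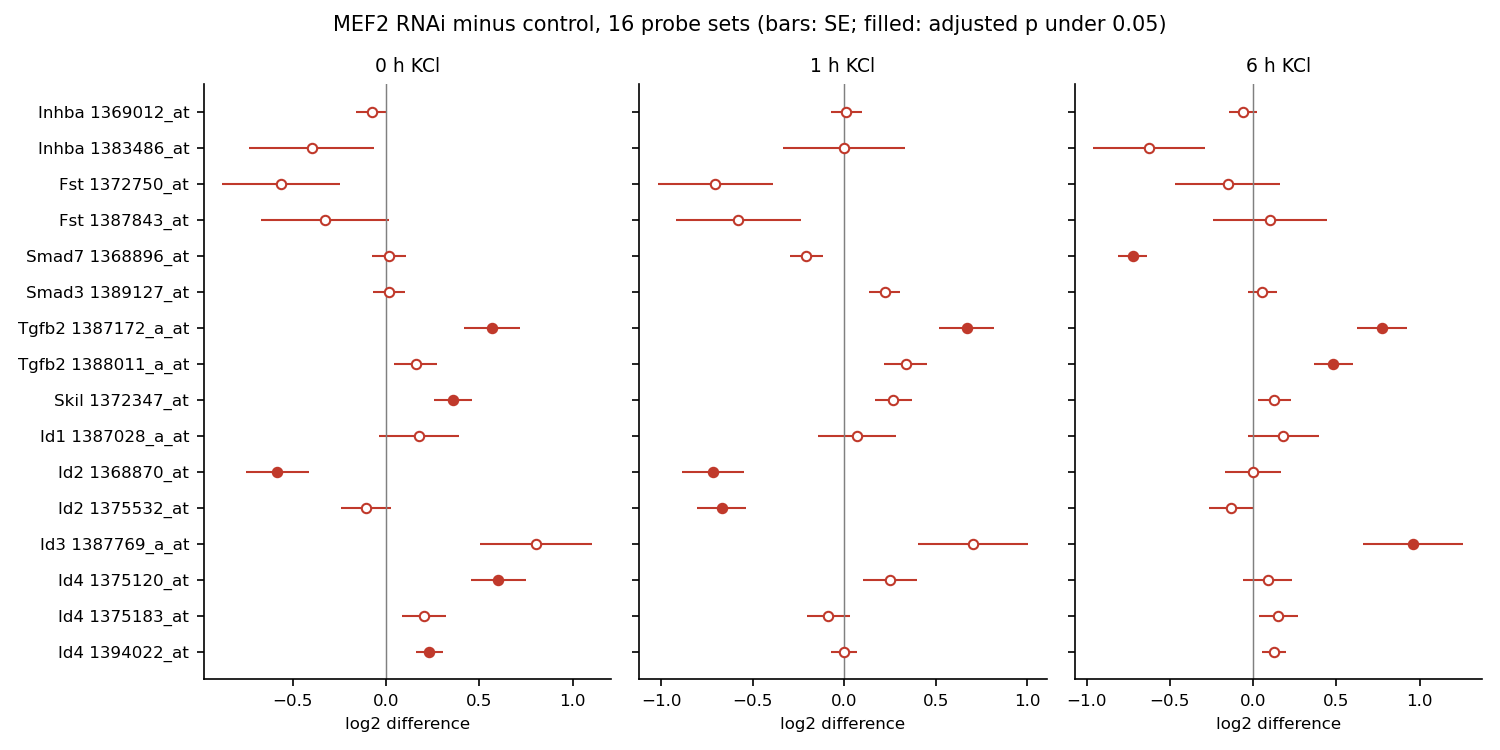
Log2 difference of the 16 tested probe sets between MEF2 RNAi and control at 0, 1 and 6 h of KCl, positive where MEF2 RNAi is higher; bars are the SE and filled points have an adjusted p under 0.05. Tgfb2 (1387172_a_at) is to the right at all 3 times, Id2 is to the left at 0 and 1 h, and Smad7 is to the left at 6 h.

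A wider list of 59 genes of the same pathways, counted on the brightest probe set of each, had 43 tested genes. Of these, 10 were called higher and 7 lower in control arrays after 6 h of KCl, 39.5% of the list, near the 37.6% of all tested probe sets. Inhbb, which encodes another activin chain, was 0.94 higher (adjusted p = 2.14e-05). The helix-loop-helix factors Neurod6 and Neurod1 changed by -0.72 (adjusted p = 5.93e-06) and -1.09 (adjusted p = 1.63e-05), and the ubiquitin ligase Smurf1 by -0.48 (adjusted p = 1.38e-05). At 1 h 1 gene was called (2.33% of the list, against 2.23%), the activin receptor Acvr2a at 0.39 (adjusted p = 0.0453). Between 1 and 6 h 11 were higher and 5 lower, 37.2% against 31.8%, led by Inhbb at 1.44 (adjusted p = 5.7e-07), with Neurod6 at -0.69, Neurod1 at -0.98 and Smurf1 at -0.41.

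With MEF2 RNAi 9 of the 43 were called higher and 7 lower at 6 h, 37.2% of the list, near the 36.4% of all tested probe sets. Inhbb (1.15; adjusted p = 3.44e-06) and the ligand gene Tgfb3 (0.90; adjusted p = 1.62e-06) were higher, and Smurf1 (-0.66; adjusted p = 7.71e-07) and the BMP antagonist Noggin, Nog (-0.83; adjusted p = 4.68e-05), were lower. At 1 h 4 were lower (9.3% against 3.19%), namely the repressor Tgif1 (-0.47; adjusted p = 0.013), the TGF-beta-inducible factor Klf10 (-0.61), the receptor Acvr1 (-0.43) and Nog (-0.51). Between the arms 2 were higher and 3 lower with MEF2 RNAi at 0 h, 1 higher and 6 lower at 1 h, and 3 lower at 6 h. These were 11.6%, 16.3% and 6.98% of the list, against 13.3%, 15.1% and 15% of all tested probe sets. The ligase Smurf2 was lower at each time, by -0.40, -0.60 and -0.54 (adjusted p = 0.00801, 0.00036 and 0.000916). The ligand gene Gdf11 was also lower at each time, by -0.44, -0.64 and -0.59 (adjusted p = 0.0252, 0.00228 and 0.00427). Smurf1 was lower at 6 h (-0.28), Neurod6 at 0 and 1 h (-0.32 and -0.41) and Neurod1 at 1 h (-0.63), and Nog was higher at 0 h (0.58; adjusted p = 0.00387). On average 6 were higher and 7 lower, 30.2% against 33.8%, among them Smurf2 (-0.51), Gdf11 (-0.56), Nog (0.35) and Tcf3, an E protein gene and Id partner, at 0.47 (adjusted p = 0.000459). With the replicate block the list had 9, 11 and 9 of its 43 genes called between the arms at 0, 1 and 6 h. Of all 19567 tested probe sets that fit called 4430, 4662 and 4685. On average it called 25 of the list and 8282 of all, and in control arrays at 1 h 4 of the list and 799 of all. At 6 h of KCl relative to 0 h it called 25 of the list in each arm, 16 of them higher. Of all tested probe sets it called 8772 with MEF2 RNAi and 8969 in control there. limma called no interaction in this list at 1 h or 6 h (2 and 3 had an unadjusted p under 0.05), and with the replicate block 1 at 6 h.

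Fst, Id1 and Id3 spanned at least 1 log2 unit between group means on their brightest probe set. The genes most like each over the 18 arrays were found by Pearson correlation among 10834 genes, with the gene itself set aside. For Fst these were Arpp21 (0.966), Shc2 (0.963) and Sh3yl1 (0.959). For Id1 they were Sprtn (0.925), Fbxl12 (0.915) and Obi1 (0.906). For Id3 they were Bend3 (0.915), Obi1 (0.915) and Klf15 (0.906). Obi1 was near both Id genes. The arrays share groups and replicate numbers, so these values describe likeness of pattern alone.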

How the data were processed

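The deposited table holds 1 linear intensity per probe set and array, and the authors' way of combining probes and scaling arrays is not given in the sources used. Per the labels' protocols, total RNA was extracted with a Qiagen RNeasy Micro kit and biotin-labelled as cRNA. Arrays were used on the deposited scale (medians 240 to 248). Intensities under the 20th percentile of the table (72.6) were set to that value before log2. A probe set was tested if at least 3 arrays exceeded their own 40th percentile. limma 3.58.1 (R 4.3.3, lmFit and eBayes) fitted the 6 group means on all 18 arrays with 12 residual degrees of freedom, and p-values were Benjamini-Hochberg adjusted over 19567 probe sets in each of 11 comparisons. The procedure was also run on simulated data with independent arrays and no shared replicate effect, so that run does not bear on the pairing. Replicate numbers come from the labels, and all 45 pairs of same-numbered arrays deviated together (correlations 0.104 to 0.718, median 0.423). The main fit leaves this pairing out, so its calls and shares ignore it. The block fit, an alternative that uses the pairing, has 10 residual degrees of freedom. Genes were named from the platform annotation, promoter windows from RefSeq, and no genome or probe position was used. The members, the pathway and marker lists and the tests were chosen with earlier results of these data known. From the pathway list the text names up to 4 called genes with the smallest adjusted p per comparison, and likeness is given for members that span at least 1 log2 unit. With 3 arrays per group, their number limits the precision. Alternatives were a higher floor, an offset of 16 in place of a floor, no filter, quantile normalization, one probe set per gene, the replicate block, trended robust eBayes, and each array left out.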

Additional observations from a re-analysis of the deposited data

Results flagged for a closer look

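Smad7 at 1368896_at stood out because its KCl response differed between the arms by a test of the difference itself. The interaction at 6 h was -0.74 on the log2 scale (limma adjusted p = 0.0299), with a change of -0.26 with MEF2 RNAi and 0.48 in control arrays. It rests on 1 dim probe set, and 9 of its 19 alternatives lost the call.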

How the results depend on the processing

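Of 176 single results on the 16 probe sets, 46 were called, 30 of them under every alternative and 16 not; of the 130 others, 103 were called under no alternative and 27 under at least 1, and none changed sign with a call. Beside the calls given above, the replicate block changed no other call of these genes. The replicate block moved the counts of all called probe sets to 799 in control at 1 h (437 without), 1300 with MEF2 RNAi at 1 h (624), 4430, 4662 and 4685 between the arms at 0, 1 and 6 h (2609, 2956 and 2933) and 173 for the interaction at 6 h (28), and the counts of the 16 probe sets to 3 in control at 1 h and 8 between the arms at 1 h. One probe set per gene, which tests fewer probe sets, gave 4542 and 3877 in control at 6 h relative to 0 and 1 h, 4376 with MEF2 RNAi at 6 h, 1624, 1869 and 1881 between the arms at 0, 1 and 6 h, 4107 averaged and 13 for the interaction at 6 h, with 3 of the members at 6 h in each arm. The higher floor gave 67 interactions at 6 h, and 1 and 3 of the 16 with MEF2 RNAi at 1 and 6 h. No filter gave 0 of the 16 in control at 1 h, 1 with MEF2 RNAi at 1 h, 2 between the arms at 0 h and 0 interactions at 6 h, with 1 interaction at 1 h over all probe sets. Quantile normalization gave 1 of the 16 with MEF2 RNAi at 1 h; the cause of these shifts was not tested. With single arrays left out the counts among the 16 ran over 0 to 2 at 1 h in each arm, 3 to 5 with MEF2 RNAi at 6 h, 0 to 3 and 3 to 5 between the arms at 0 and 1 h, and 0 to 1 for the interaction at 6 h. Over all probe sets they ran over 258 to 385 in control and 296 to 564 with MEF2 RNAi at 1 h, 1851 to 2524 between the arms at 6 h, 0 to 2 for the interaction at 1 h and 3 to 49 for that at 6 h. Inhba, Smad7 and Smad3 signals lie near the floor, which limits their folds, and 4 probe sets were too dim to test.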
